A study of Mus musculus with 12 samples.

Results

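Molecular chaperones bind other proteins while they fold, assemble, cross membranes or recover from heat and other stress. HSP70 proteins hold unfolded segments in cycles of ATP binding and release, J-domain proteins (the Dnaj genes) deliver clients to them and trigger ATP hydrolysis, HSP110 proteins exchange their nucleotide, and HSP90 proteins act on later folding steps of kinases and receptors. CCT, also called TRiC, is a cytosolic ring of related subunits that folds actin and tubulin, and small heat shock proteins keep damaged proteins from aggregating without using ATP. Sensory neurons rely on these proteins along long axons, where the supply of folded cytoskeletal and synaptic proteins has to be maintained far from the cell body.

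The genes described here are all those whose symbol begins with Hsp (Hspg2 and Hspbap1 left out), Dnaj or Cct followed by 2 to 8, together with Tcp1, the CCT alpha subunit. They number 73 of 14177 genes listed, of which 25 carry Hsp symbols, 39 are Dnaj genes and 9 belong to the CCT family. All 73 were listed for the libraries labelled Cre-, and 59 were listed for those labelled Cre+, whose table holds only genes counted at least 5 times in every library. The selection used gene symbols and no measured value.

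RNA was sequenced from dorsal root ganglion (DRG) neurons of adult male RiboTag mice, in which Cre recombination switches the ribosomal protein gene Rpl22 to a form carrying an HA epitope. Every animal was homozygous for the Rpl22-HA allele (Rpl22HA/HA). Animals labelled Runx3-Cre+ carry Cre driven by Runx3, a transcription factor gene of proprioceptive sensory neurons, and those labelled Cre- carry none, so that their ribosomes should lack the tag and their pull-down measures background. Neurons of all ganglia were purified on a Percoll cushion and cultured for 24 h with 10% serum, cells of 5 mice aged 3 to 6 months were pooled for each sample, and HA immunoprecipitation (pull-down) was compared with 10% of the lysate kept as input. This age is that of the sample labels, and the authors' published methods give a younger range for their RNA-seq mice. The 4 groups, pull-down and input of each genotype label, held 3 libraries each. In pooled lysates, fewer cells of a type and less RNA per cell cannot be told apart, and since nothing in the labels says how the 3 samples of a group were separated, p-values measure the spread between these samples only.

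Library totals ran from 8886308 to 18633365 counts. Runx3 itself went against the genotype labels: for the label Cre+ its normalised counts (reads scaled to a common library size) of 4.27, 2.39 and 5.55 in the inputs and 22.7, 2.07 and 11.1 after pull-down gave no call (log2 fold change 1.55, false discovery rate (FDR) = 0.302), whereas the libraries labelled Cre- gave 4.68, 1.89 and 2.87 in the inputs and 20.7, 35.9 and 51.2 in the pull-downs, a called rise (log2 fold change 3.52, FDR = 4.66e-04, edgeR). Ntrk3, a receptor gene of proprioceptive neurons, rose under both labels (log2 fold change 2.19, FDR = 0.0269 under Cre+ and 2.06, FDR = 1.18e-04 under Cre-, edgeR). The column names of the table assigned to Cre+ can also be read as titles of Cre- samples, so the directions below follow the labels as deposited. All 10 sensory neuron markers examined were counted in every library, the lowest at 13.8 normalised counts (Isl1, a sensory neuron transcription factor). The pull-downs labelled Cre+ were less alike than the others: across genes, their log2 values correlated at 0.743, 0.706 and 0.847 between replicates, against 0.943 to 0.972 among the pull-downs labelled Cre-. The 2 lower values both involved replicate 1, in which the endothelial marker Pecam1 stood at 255, against 20.2 and 17.8 in the other two. Pull-down replicate 1 labelled Cre- also stood apart in this marker, at 35.7 against 3.31 and 4.67. Among the inputs labelled Cre+, replicate 1 correlated with the others at 0.919 and 0.92, and replicates 2 and 3 at 0.978. Levels were scaled within each genotype label, so those set side by side across labels rest on separate scalings.

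A pair of promoter motifs known for this gene family were searched in RefSeq windows (GRCm38.p6) from 250 bases before to 50 bases after each annotated start, on both strands. A window existed for 60 of the 73 genes. Hsp90aa1 and Hspa8 were among those without a window, so neither was searched. The heat shock element, searched as GAA, any 2 bases, TTC, any 2 bases and GAA, was found for 4 of these 60 genes (6.67%) and for 179 of 27025 genes with a window (0.662%). The endoplasmic reticulum (ER) stress response element, searched as CCAAT, any 9 bases and CCACG, was found for 3 of 60 genes (5%) and for 37 of 27025 (0.137%). No gene had both. The heat shock element sites are given because they place members of 3 different classes beside each other. Capitals mark the motif match, each line runs in the direction of transcription of its gene, and the first base of the match lies 46 bases before the start of Dnajb6 (chr5:29735852-29735864, plus strand), 144 before that of Hspd1 (chr1:55088064-55088076, minus strand), 89 before that of Hspe1 (chr1:55088059-55088071, plus strand) and at base 16 after that of Hsph1 (chr5:149636288-149636300, minus strand).
Dnajb6: agctccgaGAATCTTCCGGAAcgctagac
Hspd1: gcggggccTTCCGGAAGGTTCtagaacgg
Hspe1: acggtccgTTCTAGAACCTTCcggaaggc
Hsph1: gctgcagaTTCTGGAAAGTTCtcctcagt

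Hspd1 and Hspe1 encode the mitochondrial chaperonin and its lid and are transcribed away from each other from neighbouring starts. Their windows overlap, and the stretch they share holds 2 overlapping matches. The line of Hspd1 marks one and that of Hspe1 the other, so the 4 genes counted rest on 3 separate stretches. The ER stress element occurred before Hspa5 (BiP, the HSP70 of the ER), Hsp90b1 (GRP94, the HSP90 of the ER) and Dnajc3 (an ER J-domain protein). The 250 bases before the starts of Hspa5 (chr2:34771840-34772089, plus strand) and of Hsp90b1 (chr10:86705445-86705694, minus strand) are given with the motif in capitals. The same stretch before Cct7 (chr6:85451255-85451504, plus strand) holds neither motif and is given because Cct7 differed between the genotype labels below.
Hspa5: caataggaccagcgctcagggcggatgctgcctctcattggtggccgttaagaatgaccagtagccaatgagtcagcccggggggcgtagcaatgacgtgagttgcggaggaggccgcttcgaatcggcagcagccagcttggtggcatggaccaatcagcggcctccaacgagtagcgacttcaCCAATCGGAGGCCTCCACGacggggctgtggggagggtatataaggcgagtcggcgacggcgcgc
Hsp90b1: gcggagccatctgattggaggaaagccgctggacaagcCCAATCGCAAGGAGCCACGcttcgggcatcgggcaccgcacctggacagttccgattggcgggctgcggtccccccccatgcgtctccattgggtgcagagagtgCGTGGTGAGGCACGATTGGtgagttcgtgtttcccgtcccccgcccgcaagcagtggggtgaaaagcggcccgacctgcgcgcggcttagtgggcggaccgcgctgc
Cct7: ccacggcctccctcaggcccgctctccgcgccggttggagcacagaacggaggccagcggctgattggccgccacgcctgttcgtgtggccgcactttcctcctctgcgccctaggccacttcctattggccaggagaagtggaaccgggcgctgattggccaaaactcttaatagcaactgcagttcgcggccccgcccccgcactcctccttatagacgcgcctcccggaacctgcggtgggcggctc

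In the inputs, which show total RNA of the cultures, HSP90 genes were the most abundant members. Hsp90ab1, the constitutive cytosolic HSP90, stood at 3211, 2915 and 2848 normalised counts in the inputs labelled Cre+ and at 3249, 3185 and 2964 in those labelled Cre-. Hsp90aa1, the stress-inducible cytosolic form, followed with means of 807 ± 43.5 and 810.4 ± 33.0 (SD, n = 3 each), and Hsph1, an HSP110 protein, with 613 ± 57.8 and 698 ± 116. Hsp90aa1 exceeded Hsph1 in each of the 6 input libraries, by the least in Cre- input replicate 1 (842 and 829).

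Per transcript length, as mean FPKM recomputed from the counts with lengths from the reference, the order changed below the first place. Hsp90ab1 led at 1187 in the inputs labelled Cre+, followed by Hspb8, a small heat shock protein of motor and sensory neurons, at 302. Hsp90aa1 (246), Hsp90b1 (210.2), Hspa8, the constitutive HSP70 (207), Hspa5 (191), Cct6a (175), Hsph1 (161) and Tcp1 (149) came next. The inducible HSP70 genes were near the detection limit: Hspa1a had 28 to 74 raw counts in the Cre- inputs and Hspa1b 8 to 29. These 2 genes are near-identical copies and only uniquely mapped reads were counted, so their levels are uncertain. Both were listed only for the libraries labelled Cre-.

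Between the inputs of both genotype labels no member was called by edgeR's quasi-likelihood test, where a call here and throughout needs a fold change of 2 or more and an FDR below 0.1 (0 of 59 in either direction, 0% of 8830 genes higher and 0% lower). At an unadjusted p under 0.05 edgeR counted 0 members and 16 genes, and DESeq2 also called 0 members. The member differences ran from -0.90 (Dnajc16) to 1.26 (Dnajc15) on the log2 scale with a median of 0.034. The upper end rested on 1 library, as Dnajc15 had 40.65, 10.19 and 9.25 normalised counts in the inputs labelled Cre+. In those labelled Cre- it had 6.63, 9.62 and 10.04.

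Pull-down against input asks which transcripts were found with the precipitated ribosomes more or less often than in total RNA. Under the label Cre+, most chaperone transcripts lay below input. Of 59 members, 7 fell (11.9%, against 2.49% of the 8947 genes tested) and 1 rose (1.69%, against 5.17%). The members' median log2 fold change was -0.72 and that of all genes tested 0.076, and 47 of the 59 were negative. In 28 members all 3 pull-downs lay below all 3 inputs (47.5%, against 17.9% of all genes), and in 2, Dnajc13 and Hspa12a, they lay above (3.39%, against 15.5%).

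**Figure D1:**
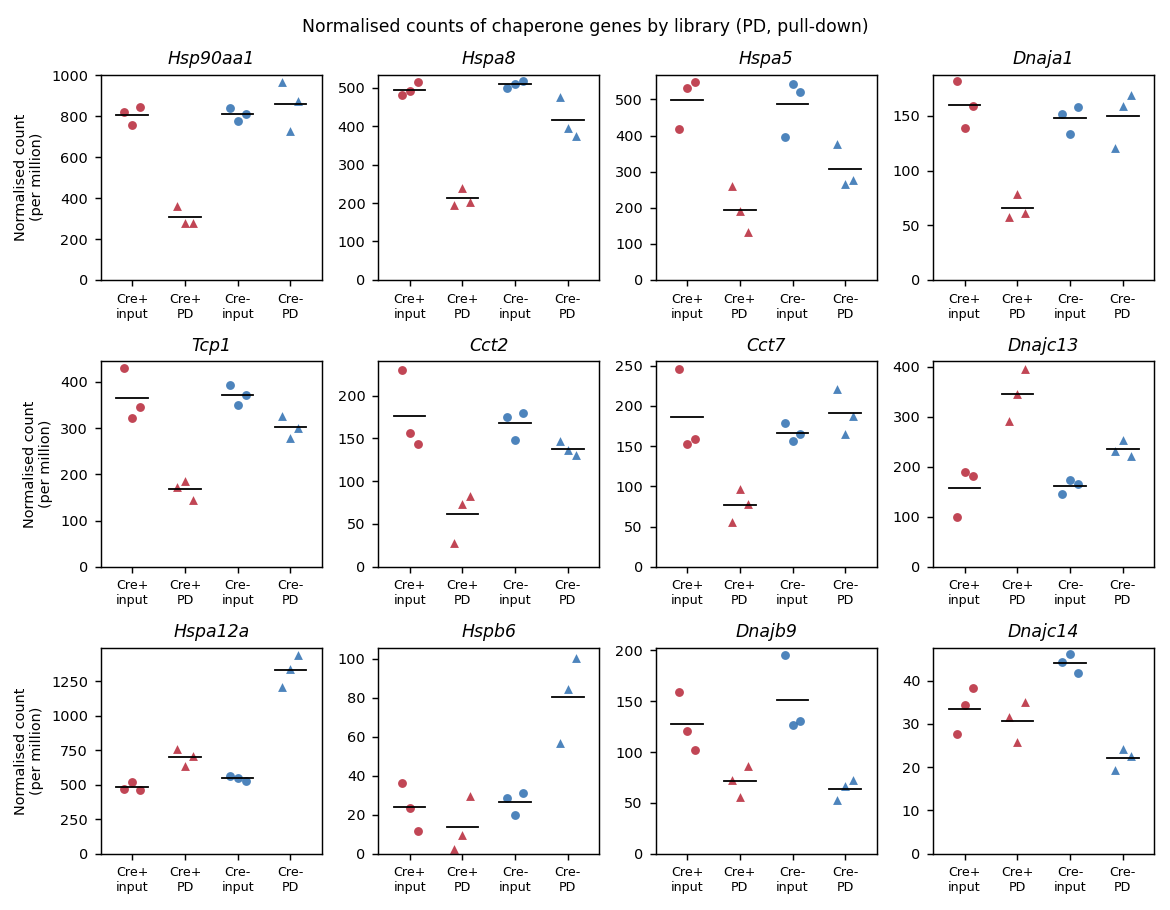
Normalised counts (vertical axis, linear, from 0) of 12 of the 13 members called in the pull-down against input comparisons, one panel per gene; each point is 1 library, circles are inputs, triangles pull-downs (PD), red the libraries labelled Cre+ and blue those labelled Cre-, and the bar is the mean of 3. In the panel of Hsp90aa1 the pull-downs labelled Cre+ lie between 279 and 363 and the 9 other libraries between 729.9 and 969.

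One of the 2 cytosolic HSP90 genes, Hsp90aa1, and the constitutive HSP70 gene Hspa8 fell. Hsp90aa1 (chr12:110690605-110702728, minus strand, gene span in GRCm38) had 819, 759 and 843 normalised counts in the inputs labelled Cre+ and 363, 279 and 279.7 in the pull-downs, without overlap, and was 2.63-fold lower (log2 -1.39, SE 0.25, FDR = 0.0373, edgeR). Hspa8 (chr9:40800984-40810087, plus strand), which also uncoats clathrin vesicles, had 480.4, 491 and 514 in the inputs and 195, 240 and 202 in the pull-downs and was 2.33-fold lower (log2 -1.22, SE 0.24, FDR = 0.045). Its introns hold small nucleolar RNA genes, and 6.09% of its annotated exon bases are shared with them. The pull-down libraries of both genes were separated from every input library by more than the spread within either group.

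Hsp90ab1 and Hsp90b1 did not pass. Their log2 fold changes were -0.64 (SE 0.24, FDR = 0.157) and -0.68 (SE 0.25, FDR = 0.143), with all 3 pull-downs below all 3 inputs in each. Among the other HSP70 genes Hspa5 fell, from 417, 531 and 548 in the inputs to 261, 190.4 and 133 in the pull-downs (log2 -1.36, SE 0.31, FDR = 0.0611). Hspa9, the HSP70 of mitochondria, stood at -0.31 (SE 0.25, FDR = 0.473). By class median the HSP110 genes were closest to input, at -0.09, with Hsph1 at -0.07, Hspa4 at -0.09 and Hspa4l at -0.19.

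Under the label Cre+ all 8 CCT genes tested were negative (median -1.18), and 3 of the 8 fell, where 53% of all genes were positive and 2.49% fell. Tcp1 (chr17:12915701-12925067, plus strand, 16.9% of its exon bases shared with other genes) had 429.8, 322 and 345 in the inputs and 173, 186 and 144 in the pull-downs (log2 -1.12, SE 0.27, FDR = 0.0636). Cct2, the beta subunit (chr10:117051001-117063814, minus strand), had 229.8, 156 and 144 against 28.1, 73.6 and 83.0 (log2 -1.52, SE 0.44, FDR = 0.0969). Cct7, the eta subunit (chr6:85451514-85468475, plus strand), had 246, 153 and 159 against 55.6, 96.9 and 78.2 (log2 -1.27, SE 0.35, FDR = 0.0871). The subunits form one ring in equal numbers, yet the pull-down values were unequal: Cct4 (-1.78, SE 0.66) and Cct8 (-1.24, SE 0.63) lay as low as the called subunits without passing, and Cct3 was at -0.30 (SE 0.43), Cct6a at -0.54 and Cct5 at -0.66. For Cct4 the 3 pull-downs were 5.66, 48.0 and 24.6, a spread within the group that exceeds the differences between most subunits.

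The summed level of the CCT genes was 1403 to 1915 normalised counts in the inputs labelled Cre+ and 739 to 998 in the pull-downs, which did not overlap. Input replicate 1 gave the highest of these sums, 1915 against 1403 and 1441. Without that library the CCT median was -1.005, and without input replicate 2 or 3 it was -1.24 and -1.22. In the Cre- libraries, where Cct6b was also listed, the sums were 1445 to 1570 and 1246 to 1615 and overlapped.

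**Figure D2:**
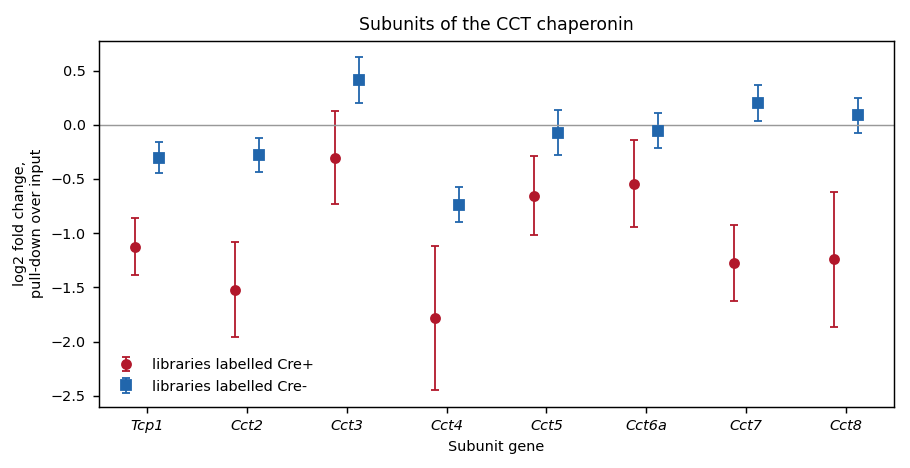
log2 fold change of pull-down over input (vertical axis) with its standard error (bars) for the 8 CCT subunit genes tested, red circles for the libraries labelled Cre+ and blue squares for those labelled Cre-. The Cre+ points run from -1.78 (Cct4) to -0.30 (Cct3), all below 0, and the Cre- points from -0.74 (Cct4) to 0.41 (Cct3).

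DNAJA genes, the closest relatives of bacterial DnaJ and general partners of HSP70, were all 4 negative with a median of -1.36. Dnaja1 (chr4:40722150-40737149, plus strand, 10.8% of exon bases shared) fell, from 181.5, 139 and 159 in the inputs to 57.8, 78.5 and 61.4 in the pull-downs (log2 -1.28, SE 0.31, FDR = 0.0687), and Dnaja2 (-1.51, SE 0.45) had an FDR of 0.101. None of the 9 DNAJB genes was called by edgeR, with a median of -0.72. At an unadjusted p under 0.05 edgeR counted 3 of them, against 2121 of all 8947 genes tested. Dnajb1, the main inducible partner of HSP70, was at -1.50 (SE 0.53, FDR = 0.137), Dnajb6 at -1.22 (SE 0.59) and Dnajb9, an ER protein, at -0.83 (SE 0.35).

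DNAJC genes, which have the J domain but otherwise varied structures and specialised tasks, lay around the level of other genes, with a median of -0.11 and 8 of 18 positive. Dnajc13 (RME-8, an endosomal sorting protein, chr9:104151282-104262930, minus strand) rose, from 99.9, 189 and 181 in the inputs to 291, 347 and 396 in the pull-downs (log2 1.14, SE 0.32, FDR = 0.0908). Dnajc5 (CSP alpha, a synaptic vesicle protein) was at 0.26 (SE 0.27) and Dnajc6 (auxilin, which recruits HSP70 to clathrin coats) at 0.63 (SE 0.38), neither called. Dnajc1, at 1.59, rested on 1 library, with 150.4 in pull-down replicate 1 and 30.8 and 18.3 in replicates 2 and 3.

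Small heat shock proteins and the mitochondrial chaperonin were below input without being called. Hspb8 had 541, 545 and 557 in the inputs and 104, 333 and 345 in the pull-downs (log2 -1.07, SE 0.41, FDR = 0.16), and Hspb1 (HSP27, abundant in sensory neurons) had 129, 128 and 130.2 against 44.4, 68.7 and 102 (log2 -0.85, SE 0.38, FDR = 0.208). In both genes the lowest library was pull-down replicate 1. Hspd1 stood at -0.46 and Hspe1 at -0.94, whose groups overlapped.

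The call counts of this comparison depended on single libraries. Leaving out any 1 of the 3 Cre+ inputs left 0 members called and 0 genes called among all genes tested by edgeR. At an unadjusted p under 0.05 edgeR counted 11 to 14 members in these fits, and 1154 to 1419 of all 8947 genes. Leaving out pull-down replicate 1, 2 or 3 gave 12, 13 and 4 members lower, while the number lower among all 8947 genes went from 223 to 565, 416 and 199. Without replicate 3 the calls of Tcp1, Cct7 and Cct2 were lost, without replicate 2 that of Cct2, and without either that of Dnajc13, which was also lost with upper-quartile scaling (9 of 16 alternative settings in all). The members' median stayed between -0.74 and -0.56 in these 6 fits.

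Transcript length moved with the fold change. Across the 8899 genes with a length the Spearman coefficient between length and log2 fold change in the libraries labelled Cre+ was 0.51, and across the 59 members 0.55, values that describe genes within the same libraries. The members tested were shorter, with a median of 2520 bases against 3319. With a length-dependent offset in the fit no member and no gene was called by edgeR, and the members' median was -0.48 against 0.029 for all genes. At an unadjusted p under 0.05 edgeR counted 13 members and 1317 of 8899 genes in that fit. For the libraries labelled Cre- the coefficients were 0.35 and 0.33. There the offset left 3 members higher and 2 lower, with 544 and 563 of all genes.

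In the libraries labelled Cre- the chaperone genes lay at the level of other genes. Of 70 members tested 3 rose (4.29%, against 6.06% of the 11526 genes tested) and 2 fell (2.86%, against 5.93%). Their median was -0.02 and that of all genes -0.04, with 35 positive and 35 negative. The 3 that rose include Hspa1l, which passed the filter (mean FPKM above 1) only through its pull-downs. In 12 members the pull-downs lay wholly above the inputs (17.1%, against 18.2% of all genes) and in 15 wholly below (21.4%, against 18.6%).

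**Figure D3:**
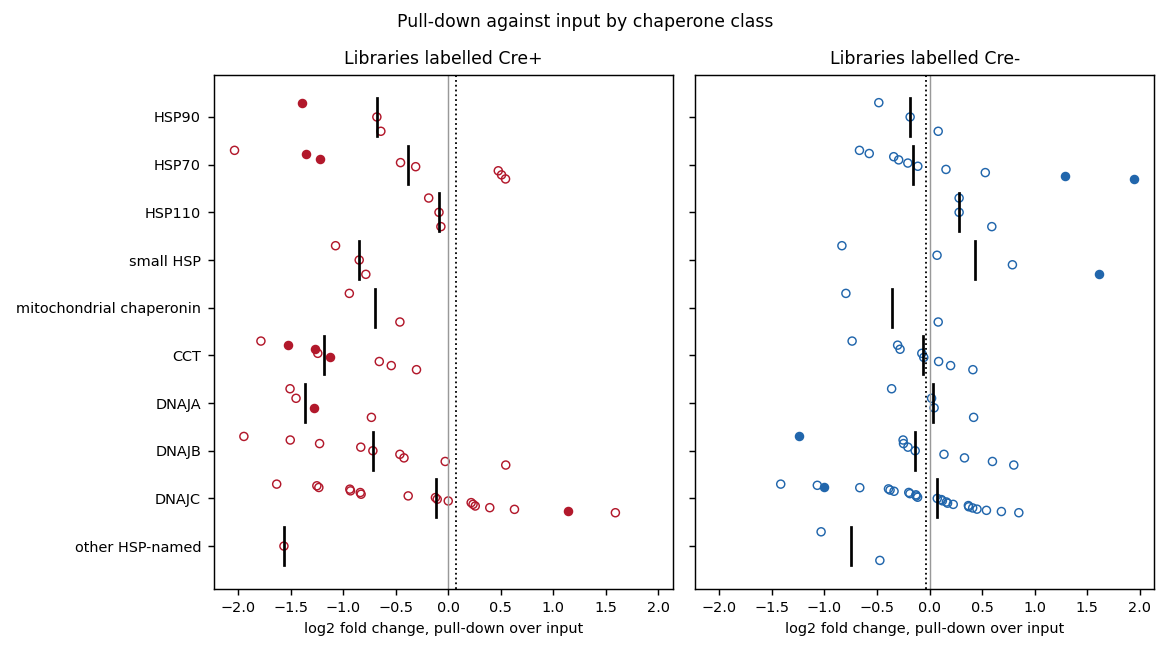
log2 fold change of pull-down over input (horizontal axis) of each member tested, by chaperone class (rows), in the libraries labelled Cre+ (left, 59 genes) and Cre- (right, 70 genes). Filled points were called at FDR below 0.1 and 2-fold, black bars are class medians and the dotted line is the median of all genes tested, at 0.08 and -0.04. The CCT and DNAJA rows lie wholly below 0 on the left (medians -1.18 and -1.36) and around 0 on the right (-0.06 and 0.03).

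The 3 that rose were Hspa12a, Hspb6 and Hspa1l. Hspa12a, a distant HSP70 relative found in brain (chr19:58795750-58943654, minus strand), had 563, 545 and 530.2 in the inputs labelled Cre- and 1207, 1341 and 1440 in the pull-downs (2.44-fold higher, log2 1.28, SE 0.14, FDR = 2.06e-04, edgeR). Hspb6 (HSP20, a small heat shock protein of muscle, chr7:30552178-30555443, plus strand) had 28.5, 19.8 and 30.9 against 56.7, 84.7 and 100.4 (3.05-fold higher, log2 1.61, SE 0.26, FDR = 0.00226). Hspa1l, the testis-type neighbour of the inducible HSP70 genes, had 4 to 32 raw counts in the inputs and 46 to 127 in the pull-downs (log2 1.94, SE 0.66, FDR = 0.0678). Its recomputed mean FPKM was 0.589 in these inputs and 2.29 in the pull-downs. It passed the filter (deposited mean FPKM above 1, here 1.19) only through the pull-downs, so no conclusion is drawn from its call. Of the Hspa1l exon bases 71.9% overlap the antisense gene Gm10501, and no source says that reads were assigned by strand, so the reads of both genes cannot be told apart. The call of Hspa1l was lost without input replicate 1 or 2 or without pull-down replicate 2, and with the replicate number as a block, which left 2 members higher. A joint fit of all 12 libraries tested 59 members, and Hspa1l was not among them. In that fit the call of Hspb6 was lost, and those of Hspa12a and Dnajb9 held.

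The 2 that fell were Dnajb9 and Dnajc14. Dnajb9 (ERdj4, an ER partner of BiP, chr12:44205559-44210326, minus strand) had 195, 127 and 131 in the inputs labelled Cre- and 52.7, 66.2 and 72.2 in the pull-downs (2.37-fold lower, log2 -1.24, SE 0.22, FDR = 0.00311), and was called in all 17 alternative settings. Dnajc14, which acts at the ER membrane (chr10:128804062-128819446, plus strand), had 44.4, 46.1 and 41.8 against 19.3, 24.2 and 22.6 (log2 -1, SE 0.21, FDR = 0.00937). Its fold change sits at the 2-fold limit, its call was lost in 5 of 17 settings (among them DESeq2 and the fits without input replicate 1, input replicate 2 or pull-down replicate 1), and 19.9% of its exon bases are shared with Ormdl2, Sarnp and Tmem198b.

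None of the 7 genes that fell under the label Cre+ was called here by edgeR, though Hspa5 came below the FDR threshold. Hsp90aa1 had 842, 776.5 and 812 in the inputs labelled Cre- and 969, 729.9 and 875 in the pull-downs (log2 0.08, SE 0.15, FDR = 0.746), with overlapping groups. Hspa8 had 498, 511 and 518 against 475, 396 and 374 (log2 -0.29, SE 0.15, FDR = 0.194). Dnaja1 was at 0.02 (SE 0.18), Cct7 at 0.20 (SE 0.16), Cct2 at -0.28 (SE 0.16) and Tcp1 at -0.30 (SE 0.14), none called. Hspa5 was at -0.67 (SE 0.18, FDR = 0.0306), Hspb1 at -0.83 (SE 0.23, FDR = 0.0291), Hsp90b1 at -0.48 (SE 0.15, FDR = 0.044) and Cct4 at -0.74 (SE 0.16, FDR = 0.0111), all below the FDR threshold but short of a 2-fold change. Dnajc6 (0.85, SE 0.15, FDR = 0.00374) and Dnajc13 (0.54, SE 0.15, FDR = 0.0335) were likewise above input by less than 2-fold.

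Whether the pull-down over input differed between the genotype labels was tested as an interaction in all 12 libraries. No member was higher in the libraries labelled Cre+ (0 of 59 by edgeR, against 2.64% of 8830 genes) and 3 were lower (5.08%, against 2.15%). At an unadjusted p under 0.05 in either direction edgeR counted 18 members and 1729 of all genes. DESeq2 called 1 member and 615 of all genes higher. Hsp90aa1 differed most firmly, at -1.44 (SE 0.25, FDR = 0.0186), a 2.71-fold lower ratio, and was called in all 20 alternative settings. Cct7 differed by -1.43 (SE 0.37, FDR = 0.072) and Dnaja1 by -1.25 (SE 0.32, FDR = 0.0718). Hspa8, at -0.88 (SE 0.25, FDR = 0.0882), passed the FDR threshold without a 2-fold change.

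The members' median difference was -0.68 against 0.13 for all genes, and 45 of 59 were negative. By class the medians were -1.18 for DNAJA, -1.10 for small heat shock proteins, -0.89 for CCT, -0.71 for DNAJB, -0.42 for HSP90, -0.36 for HSP70, -0.33 for HSP110 and -0.17 for DNAJC. Hspb6, which rose in the libraries labelled Cre-, gave the lowest value of all members, -2.35, with a standard error of 0.95 (FDR = 0.199). Hspb1, Hspa9, Dnajc3 and Hspe1 gave values from -0.11 to 0.06, with standard errors of 0.29 to 0.95. The calls of Cct7 and Dnaja1 were lost in 10 and 9 of 20 settings, among them each fit without 1 input of either label or without Cre- pull-down replicate 2 or 3, and for Cct7 also replicate 1. The number called lower ran from 1 to 11 when single libraries were left out, with Hsp90aa1 the only call left in the fits without 1 input of either label or without Cre- pull-down replicate 2 or 3, and the highest count when pull-down replicate 2 labelled Cre+ was absent. Over the same fits the number lower among all genes ran from 30 to 698, against 190 with all libraries.

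**Figure D4:**
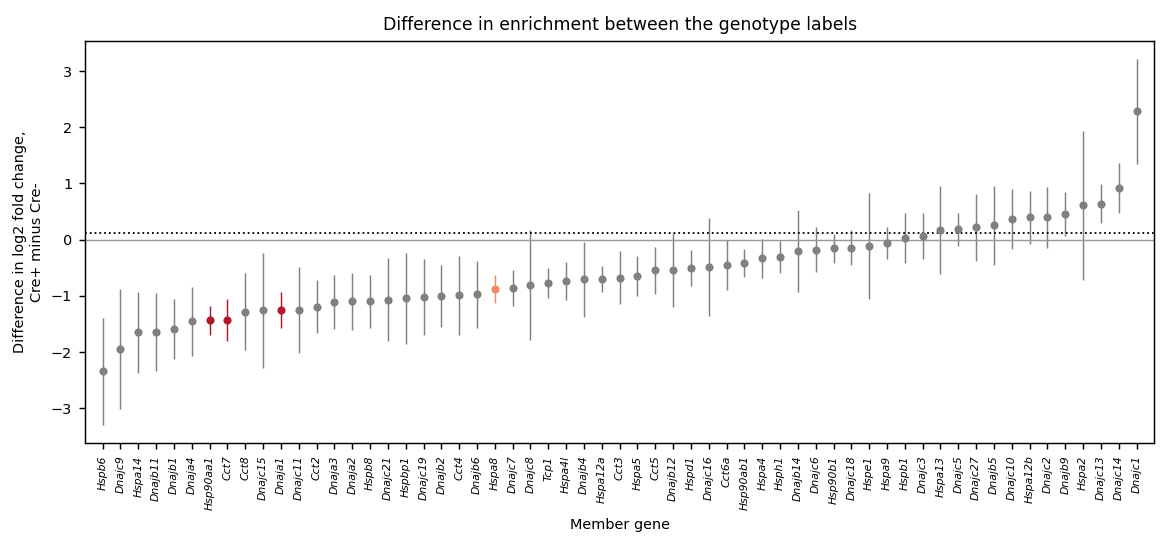
Difference in log2 fold change between the libraries labelled Cre+ and Cre- (vertical axis) with its standard error (bars) for the 59 members tested in 12 libraries, in order of size. Dark red marks the 3 called members, orange Hspa8 (FDR below 0.1, under 2-fold), and the dotted line is the median of all genes, at 0.13; 45 of the 59 points lie below 0.

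The pull-downs themselves were also compared between the labels, in the same fit. Of 59 members 11 were lower in those labelled Cre+ (18.6%, against 7.23% of genes) and 1 was higher (1.69%, against 10.8%). All 4 DNAJA genes were among the lower ones, at -1.07 (Dnaja1), -1.18 (Dnaja2), -1.08 (Dnaja3) and -1.41 (Dnaja4). Of the Dnaja4 exon bases 44.1% overlap Wdr61 on the other strand. Hsp90aa1 (-1.38, SE 0.18, FDR = 7.97e-04), Cct7 (-1.20, SE 0.27, FDR = 0.0127) and Dnajb1 (-1.50, SE 0.38, FDR = 0.023) kept their calls in all 20 settings. After pull-down Dnajb1 had normalised counts of 12.0, 35.7 and 17.9 under Cre+ and 54.8, 70.1 and 75.8 under Cre-, without overlap. The other 3 DNAJA calls and that of Dnaja1 were each lost in 2 to 6 fits, mostly without single pull-downs.

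Hspb6 (-2.43, SE 0.70, FDR = 0.0347), Dnajb11, an ER partner of BiP (-1.73, SE 0.50, FDR = 0.0366), and Cct2 (-1.05, SE 0.34, FDR = 0.0548) were lower too. The call of Cct2 was lost in 6 of 20 settings, among them the fits without Cre+ pull-down replicate 1 or without any 1 of the Cre- pull-downs, that of Hspb6 without Cre- pull-down replicate 3 and that of Dnajb11 without Cre- pull-down replicate 1. Without single libraries Hspb6 ranged down to -3.65 and Dnajb11 to -2.69. Dnajc1 was the one called higher (1.97, SE 0.67, FDR = 0.0661), and lost its call without Cre+ pull-down replicate 1 or without Cre- replicate 2 or 3. This comparison and the interaction share the pull-down libraries, so their values are not separate evidence. The number called lower was 6, 7 and 4 when Cre- pull-down replicate 1, 2 or 3 was left out (520, 372 and 324 of all genes, against 638 with all libraries), and reached 17 (1090 of all genes) in the absence of pull-down replicate 2 labelled Cre+.

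Genes that work with these chaperones were counted from 6 lists, to be read against the shares of all genes (5.17% higher and 2.49% lower under Cre+, 6.06% and 5.93% under Cre-). In the libraries labelled Cre+, 3 of 13 prefoldin and tubulin folding genes tested fell: Pfdn1 (-4.01, SE 0.82) and Pfdn5 (-3.11, SE 0.92), subunits of prefoldin, which hands unfolded actin and tubulin to CCT, and the tubulin cofactor Tbcb (-2.11, SE 0.59). The list's median was -1.11. Of 8 ER folding genes 3 fell, the lectin chaperone Canx (-1.001) and the disulfide isomerases Pdia3 (-1.18) and P4hb (-1.74). Of 14 HSP90 co-chaperones 0 were called by edgeR, with a median of -0.85. At an unadjusted p under 0.05 edgeR counted 3 of them, against 2121 of all 8947 genes tested. Of 10 nucleotide exchange factors and partners of HSP70 1 rose, the ER protein Hyou1 (1.43, SE 0.39, FDR = 0.086).

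In the libraries labelled Cre-, Pfdn1 (-1.94), the ER proteins Sdf2l1 (-1.01) and Serpinh1 (-1.70) and the small heat shock protein Cryab (-1.18) fell, and Clu, an extracellular chaperone, rose (1.97, SE 0.17, FDR = 9.14e-05). No gene of the HSP90 co-chaperone list was called there by edgeR (4 of 14 at an unadjusted p under 0.05, against 3581 of all 11526 genes tested). The interaction was called lower for Fkbp4 (-1.66), Tbcb (-2.05) and Clu (-2.69) and higher for Hyou1 (1.65). The heat shock factor genes were not called against input under either label, with Hsf1 at 1.18 (SE 0.48) in the libraries labelled Cre+ and -0.31 (SE 0.23) in those labelled Cre-, but between the pull-downs Hsf1 was called higher under Cre+ (1.40, SE 0.38, FDR = 0.0298, edgeR). In that comparison, where 10.8% of all genes were higher and 7.23% lower, 3 of 14 HSP90 co-chaperones (Fkbp4, Sugt1 and Trap1, from -1.49 to -1.16), 4 of 13 prefoldin and tubulin folding genes (Pfdn1, Pfdn4, Tbcb and Txndc9, from -2.75 to -1.07), P4hb of the ER list (-1.10) and Clu (-2.71) were lower, and Hyou1 (1.40) was higher.

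Markers of cell types moved with the same comparisons, against the same shares of all genes. In the libraries labelled Cre+, 3 of 10 sensory neuron markers fell and 0 rose, their summed level running from 22180 to 29380 in the inputs and from 22670 to 25040 in the pull-downs. In those labelled Cre-, 3 of 10 rose, with sums of 25400 to 30180 and 50070 to 57600. Of the proprioceptor markers 1 of 6 rose under the label Cre+ (sums 305 to 418 and 682 to 881) and 6 of 7 under Cre- (393 to 424 and 1445 to 1776). Sums take in every marker listed for a label, tested or not, so they cover unlike sets: 6 proprioceptor markers under Cre+ and 8 under Cre-. For glial markers these were 7 and 11, for endothelial 3 and 4, for fibroblast 4 and 6 and for macrophage 2 and 5. Of the satellite glia and Schwann cell markers 0 of 7 were called under Cre+ (sums 2940 to 4037 and 1874 to 2763) and 2 of 9 fell under Cre- (3294 to 4665 and 1689 to 2046). These sums were mostly Pmp22, which held 3140 of 4037 in Cre+ input replicate 1 and 3831 of 4665 in Cre- input replicate 1. The fold change was positive for 2 of 7 under Cre+ and 3 of 9 under Cre-. Among the latter, S100b had 368, 287 and 301 in the inputs and 445, 530 and 569 in the pull-downs.

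The same lists moved with the comparisons across labels. In the interaction (2.64% of all genes higher, 2.15% lower) 3 of 10 sensory neuron markers were lower, with a median of -0.81, as were 2 of 6 proprioceptor and 1 of 7 glial markers. Between the pull-downs (10.8% and 7.23%) 5 of 10 sensory neuron markers were lower, with a median of -0.98, as were 2 of 6 proprioceptor and 1 of 7 glial markers, whereas 2 of 3 endothelial and 1 of 4 fibroblast markers were higher.

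Fibroblast, macrophage and endothelial markers were not called against input under Cre+, where the endothelial sum reached 381 in pull-down replicate 1 against 96.5 and 101 in the other two and 46.1 to 82.2 in the inputs. The macrophage sum was 112 in that replicate, against 16.8 and 4.85 in the other two. Under Cre- 1 of 5 fibroblast markers fell and no endothelial or macrophage marker was called by edgeR. At an unadjusted p under 0.05 edgeR counted 0 of 3 endothelial and 1 of 5 macrophage markers, against 3581 of all 11526 genes tested. There too pull-down replicate 1 was highest, with an endothelial sum of 115 against 16.1 and 16.7. Its fibroblast sum was 89.4, against 29.3 and 25.1. Fabp7, a glial marker, was at 0 to 9 raw counts in the pull-downs labelled Cre-. The part of cell composition, of transcript length and of the labels in the differences of chaperone genes was not tested.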

How the data were processed

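The deposited tables hold counts per gene, which the authors made by aligning reads to mm10 with STAR (default settings) and counting uniquely mapped fragments on RefSeq gene models with HTSeq; the submitters' processing notes also name CASAVA 1.8.2 and edgeR. Each table also holds a mean FPKM from the authors, used only as a filter, and 18 further columns of values per sample that were not used. The authors' own log2 fold changes, p-values and FDR columns were not used. Members, gene lists and tests were chosen with earlier results of these data known.

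Counts were tested with edgeR 4.0.16 in R 4.3.3 (TMM, quasi-likelihood, Benjamini-Hochberg over all genes tested, deposited mean FPKM above 1), within each genotype label, or in all 12 libraries for comparisons across labels (8830 genes). Normalised counts are counts scaled by library size after TMM within a label's table, so levels set side by side across labels rest on separate scalings. Recomputed FPKM values divide them by a GENCODE transcript length. SE is the standard error of the log2 value. No outcome of a check on simulated data is given here, so none is relied on. Named are the defining members of each class, members called (at most 10 per direction, by FDR), and the 3 most abundant in the inputs. Genes beyond that rule (such as Hspb6 in the interaction, Dnajc1 in the libraries labelled Cre+, Dnaja2, Dnajc3 and Hspa4l there, Dnajc15 and Dnajc16) were named after their values were seen. Alternatives were DESeq2 1.42.0, the exact test, upper-quartile and library-size scaling, other filters and thresholds, a length offset, a replicate block, a joint fit and leaving out each library. Figures were drawn with matplotlib 3.10.9. Library totals, given with the results, set the counting precision.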

Additional observations from a re-analysis of the deposited data

Results flagged for a closer look

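Results for 4 genes stood out because pull-down over input differed between the genotype labels at an FDR below 0.1 by the interaction test in edgeR. Of these, Hspa8 fell short of the 2-fold limit and was not a call. Hsp90aa1 differed by -1.44 on the log2 scale (FDR = 0.0186), Cct7 by -1.43 (FDR = 0.072), Dnaja1 by -1.25 (FDR = 0.0718) and Hspa8 by -0.88 (FDR = 0.0882), each lower in the libraries labelled Cre+. The pull-down ratio was below 1 in the libraries labelled Cre+ for all 4 genes, and in those labelled Cre- Hsp90aa1, Cct7 and Dnaja1 were slightly above input and Hspa8 slightly below. The fits without one library gave the interaction of Hsp90aa1 an FDR of at most 0.0929. Over the 20 alternative settings Cct7 lost its call in 10 (FDR up to 0.206) and Dnaja1 in 9 (up to 0.208).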

How the results depend on the processing

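The called results of single members kept their direction in every alternative run for them; members that were not called were not followed through the alternatives one by one. For pull-down against input labelled Cre+ (1 member higher, 7 lower, median -0.72), the members called higher and lower were 1 and 11 with DESeq2, 1 and 12 with the exact test, 0 and 19 with library size alone (median -1.15), 0 and 7 with upper-quartile scaling (median -0.90), 0 and 0 with the length offset (median -0.48), 2 and 17 in the joint fit and 0 and 2 at FDR below 0.05. The number lower among all genes moved too, from 223 to 568 with DESeq2, 485 with the exact test, 715 with library size alone, 939 in the joint fit and 25 at FDR below 0.05. For Cre- (3 and 2, median -0.02) they were 3 and 1 with DESeq2, 3 and 4 with library size alone (median -0.25), 1 and 1 in the joint fit and 8 and 6 with no fold limit, and the median was -0.064 with no filter. All genes under Cre- went from 698 higher and 684 lower to 763 and 718 with DESeq2 and 433 and 1249 with library size alone. They were 1494 and 1278 with no fold limit, and 265 and 173 in the joint fit, which tested 59 members. For the interaction (0 and 3, median -0.68) they were 1 and 6 with DESeq2, 0 and 5 with library size alone (median -0.93) and 0 and 1 at FDR below 0.05, and the median was -0.86 with upper-quartile scaling and -0.52 with the length offset. All genes lower in the interaction went from 190 to 420 with DESeq2, 294 with library size alone and 58 at FDR below 0.05. All genes higher in it went from 233 to 615 with DESeq2. With the length offset 0 members were higher and 4 lower in the interaction (125 and 151 of all genes). For the pull-downs (1 and 11) the number higher was 0 with library size alone, the length offset (11 lower) and FDR below 0.05, and with no fold limit 2 and 17 were called. All genes there went from 955 higher and 638 lower to 554 and 943 with library size alone and 844 and 596 with the length offset. They were 604 and 422 at FDR below 0.05 and 1194 and 846 with no fold limit. Library size alone moved the median of all genes to -0.36 (Cre+) and -0.27 (Cre-), so directions are relative to those shifts. Leaving out single libraries gave 0 to 1 higher, 0 to 13 lower and medians of -0.74 to -0.56 under Cre+, 2 to 3 higher, 1 to 3 lower and medians of -0.037 to 0.067 under Cre-, 0 to 1 higher, 1 to 11 lower and medians of -0.70 to -0.58 for the interaction, and 0 to 1 higher and 4 to 17 lower for the pull-downs. Under Cre- the fits without single libraries called 573 to 818 of all genes higher and 524 to 1064 lower. The inputs gave 0 calls in all settings. With the replicate block, possible under Cre- only, 2 members were higher and 2 lower (median -0.02), and Hspa1l lost its call; same-numbered Cre- samples deviated together at only 0.0747, 0.0336 and 0.141, though each pull-down correlated best with its own number. The numbered columns of the Cre+ table could be tied to the group but not to single samples, so their numbers only name libraries and no block was fitted there. Low counts limit Hspa1a, Hspa1b, Hspa1l and Hspa14, and with 3 libraries a group small differences are not detectable.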
